A study of Bos taurus with 20 samples.

Results

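Blood vessels are lined by endothelial cells, and the 9 genes described here mark that lining. The constant markers are 7 genes that endothelial cells carry at rest, namely VWF, PECAM1, CDH5, CLDN5, KDR, TEK and TIE1. The inducible selectins are SELE and SELP, which help leukocytes to roll on the vessel wall during inflammation. Every probe of the array whose name or description in the scanner files gave one of the 9 symbols was taken, and the brightest probe stood for its gene. All 9 genes had such a probe, out of 14620 genes with a symbol on the array.

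The RNA came from skin biopsies of the horn-forming region of the skull of cattle, with epidermis, dermis and dermal connective tissue in each biopsy. There were 4 polled animals (hornless, 1 male and 3 females), 4 scurred animals (with loose rudimentary horns, 3 males and 1 female) and 3 horned animals (2 males and 1 female). Each of chips 1 to 4 carried 4 Agilent 2-colour arrays on which 1 polled, 1 scurred and 1 horned animal were set against each other. Animals carry their replicate number, and horned 2 served on chips 2 and 4. Chip 5 set the horn site against skin from elsewhere on the skull of the same animal, in polled 3 and scurred 2, both female. The labels give neither breed, age nor genotype at the polled or scurs loci. A biopsy mixes many cell types, so fewer endothelial cells and less RNA per endothelial cell cannot be told apart in any result below.

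Signal stood well above background at 64.5% to 73.5% of spots on the 20 arrays, and precision is limited by how few animals there are. Across probes, arrays of exchanged dyes had an r of −0.948 to −0.821 on chips 1 to 4, and of −0.672 and −0.724 on the fifth chip. Scurred 1 stood apart from the other animals, with a mean r of 0.922 over 15712 probes against 0.949 to 0.965 for the rest. Some of the values that lean on it, but not all, are therefore also given without it. The arrays of chip 1 were scanned on a day of their own.

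Endothelial cells are held together by adhesion molecules at their junctions, among them VE-cadherin (CDH5), PECAM-1 and claudin-5 (CLDN5). They respond to growth factors through receptor tyrosine kinases, with KDR as the main receptor of VEGF-A, and TEK as the receptor of the angiopoietins beside its relative TIE1. Von Willebrand factor (VWF) and P-selectin (SELP) are stored together in granules of resting endothelium and released on stimulation, whereas E-selectin (SELE) is made anew when cytokines act on the cell. Platelets and their precursors also carry VWF, PECAM1 and SELP.

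Each gene was read by 1 probe of 60 bases, printed on the array as 2 spots. Where the probes sit in their transcripts was not checked. The probes of VWF and CLDN5 had no stop codon in any of the 3 forward reading frames, and they are shown whole. The probes of SELE, SELP and TEK hold the letters of a polyadenylation signal, AATAAA, near their end, and their last 30 bases are shown with that signal in capitals.
VWF: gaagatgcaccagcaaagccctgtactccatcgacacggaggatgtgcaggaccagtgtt
CLDN5: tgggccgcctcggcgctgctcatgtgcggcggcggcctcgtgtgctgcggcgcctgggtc
SELE: tggctctgtaaagtttgatAATAAAcatgt
SELP: ttgatattttgctgAATAAAgtctgtatcc
TEK: tatagtaagtgAATAAAtgtcttgcctacc
The AATAAA motif, searched on the strand as printed, was found in the probes of 4 of the 9 members (TIE1 is the fourth), against 11.8% of all 21475 probes. Its reverse complement, TTTATT, was found in those of KDR and PECAM1, against 3.88% of all probes. The share of G and C was 55% in the VWF probe and 78.3% in the CLDN5 probe, against 35% in the SELE, SELP and TEK probes and a median of 43.3% over all probes. The CDH5 probe was lowest at 26.7%. Differences in level between genes are therefore not compared, and each gene is set only against itself in other animals.

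All 9 genes were well above background in 11 of 11 animals and in 4 of 4 RNAs of chip 5, so every member was measured and none was lost to the filter on dim probes. Levels are given as log2 intensity on chips 1 to 4. The labelled tissue, skin, was checked with 9 keratinocyte genes, which mark the epidermis. Of these, KRT5, KRT14, KRT10, KRT15, DSP and CDH1 were well above background in 11 of 11 animals, KRT1 in 7, TP63 in 5 and DSG3 in 4.

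Among the storage and junction genes, VWF had levels of 14.14, 13.42, 14.13 and 13.04 in the polled animals, 12.87, 13.69, 13.21 and 13.67 in the scurred animals and 13.99, 14.40 and 14.03 in the horned animals. All 4 scurred animals lay below all 3 horned animals, while the polled animals split into a pair within the horned range and a pair below it. Levels of scurred animals lay below those of horned animals without overlap for 2.67% of the probes tested, and for VWF and TEK among the 9 members. From lowest to highest, the means of VWF were 13.36 ± 0.39 in scurred (SD, n = 4), 13.68 ± 0.54 in polled (SD, n = 4) and 14.14 ± 0.22 in horned animals (SD, n = 3), and the polled values overlapped with both of the others.

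PECAM1, an adhesion molecule of the endothelial junction that platelets and leukocytes share, had levels of 12.41, 11.87, 12.67 and 11.90 in polled, 11.49, 12.02, 12.29 and 11.95 in scurred and 11.80, 12.42 and 12.07 in horned animals. CDH5, the cadherin that is the most restricted to endothelium of these genes, had 12.36, 11.91, 12.68 and 11.72 in polled, 12.28, 11.81, 11.53 and 12.49 in scurred and 11.88, 12.29 and 12.10 in horned animals. For both genes the 3 groups overlapped fully, with group means that lay within 0.27 of each other for PECAM1 and within 0.14 for CDH5.

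CLDN5, a claudin that seals tight junctions of small vessels, had levels of 8.23, 7.82, 8.37 and 7.49 in polled, 8.4, 7.96, 7.84 and 8.02 in scurred and 9.37, 7.92 and 7.60 in horned animals. The highest value was that of horned 1, and the other 2 horned animals lay among the polled and scurred ones. The 2 orders of the dyes on 1 chip gave polled minus horned values of CLDN5 that lay up to 0.81 apart. Among the 9 members only TIE1 had a wider gap. The SE of the fitted polled minus horned difference was 0.238 for TIE1 and 0.367 for CLDN5, within 0.221 to 0.874 over all members.

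Among the growth factor receptors, KDR had levels of 11.72, 11.08, 12.31 and 11.38 in polled, 11.07, 11.42, 11.51 and 11.85 in scurred and 11.62, 12.61 and 12.09 in horned animals. From lowest to highest, its means were 11.46 ± 0.32 in scurred (SD, n = 4), 11.62 ± 0.53 in polled (SD, n = 4) and 12.11 ± 0.50 in horned animals (SD, n = 3), and all 3 groups overlapped.

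TEK had levels of 12.17, 11.49, 11.87 and 11.19 in polled, 10.84, 11.28, 11.10 and 11.71 in scurred and 11.75, 11.92 and 11.92 in horned animals. The 3 horned animals lay within 0.17 of each other, the 4 scurred animals were all lower, and polled 1 was the highest of all 11. TIE1, which has no well-defined ligand of its own, had 8.44, 8.56, 8.96 and 8.21 in polled, 8.77, 8.65, 8.28 and 8.68 in scurred and 8.90, 8.87 and 8.49 in horned animals, with overlap throughout.

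The inducible selectins differed in how far they spread. SELE had levels of 9.46, 12.66, 11.71 and 11.05 in polled, 12.02, 10.84, 9.49 and 9.09 in scurred and 8.73, 10.09 and 10.13 in horned animals. Polled 2, scurred 1 and polled 3 were the highest and horned 1 the lowest. The SD of SELE was 1.35 among polled, 1.34 among scurred and 0.80 among horned animals, against SDs of 0.10 to 0.94 for the constant markers in the same groups. SELP had 13.26, 11.96, 13.13 and 12.27 in polled, 12.31, 12.15, 12.28 and 12.60 in scurred and 12.37, 12.98 and 13.37 in horned animals, and its SD of 0.19 to 0.64 was like that of the constant markers.

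**Figure D1:**
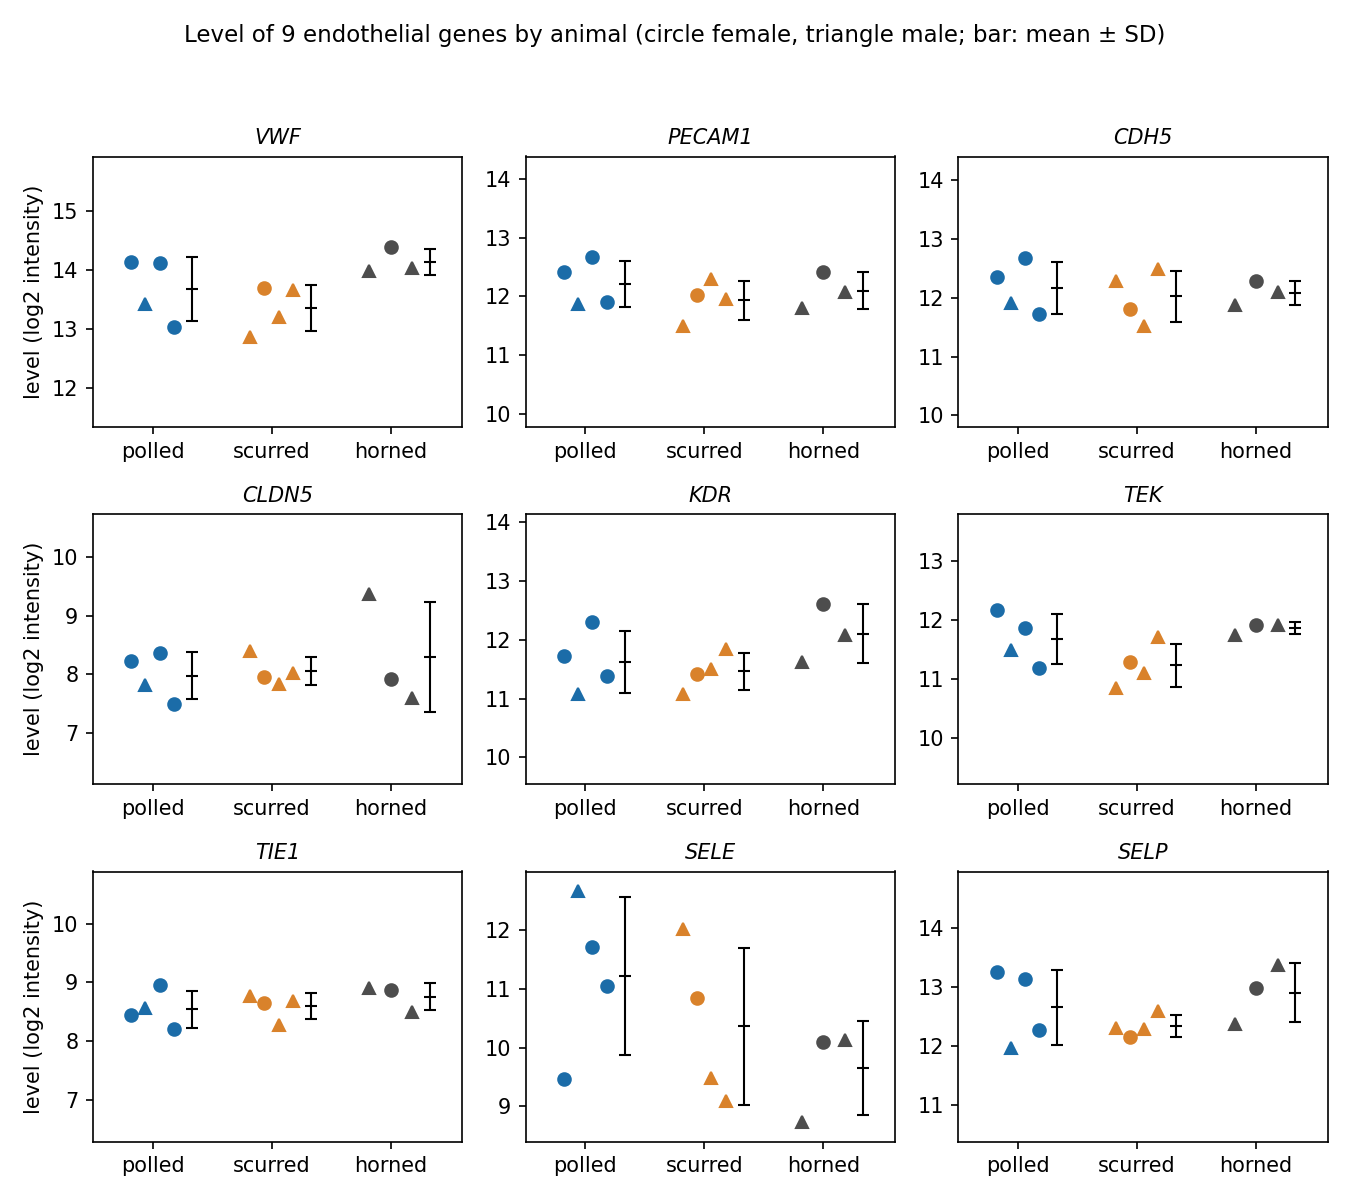
Level of each of the 9 genes (log2 intensity, vertical axes of equal span) in every animal of chips 1 to 4, with polled, scurred and horned animals from left to right, circles for females and triangles for males; bars give the group mean ± SD. VWF and TEK are the 2 genes whose 4 scurred animals all lie below the 3 horned animals, and SELE spreads over the widest range, from 8.73 to 12.66.

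Differences were then taken within chips, each polled or scurred animal minus the horned animal of its chip. This removes the chip and the dye, and it means that the polled and the scurred comparison share the same 3 horned animals. The mean over the 7 constant markers was 0.02, −0.60, 0.38 and −0.78 in polled 1 to 4 and −0.54, −0.47, −0.39 and −0.23 in scurred 1 to 4. Polled 2 and polled 4, both measured against horned 2, were lower than it in 7 of the 7 constant markers. Polled 1 was lower than horned 1 in 2 of them, and polled 3 lower than horned 3 in 1. Among the horned animals, horned 2 had the highest summed level of these markers, 15.39 on the log2 scale against 14.93 and 15.06. Polled 2 and polled 4 had the lowest of the polled animals, 14.56 and 14.36, against 15.19 in polled 1 and 15.31 in polled 3. The part of each animal in these differences was not tested. The scurred animals were more uniform, with 5 or 6 of the 7 lower in each.

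**Figure D2:**
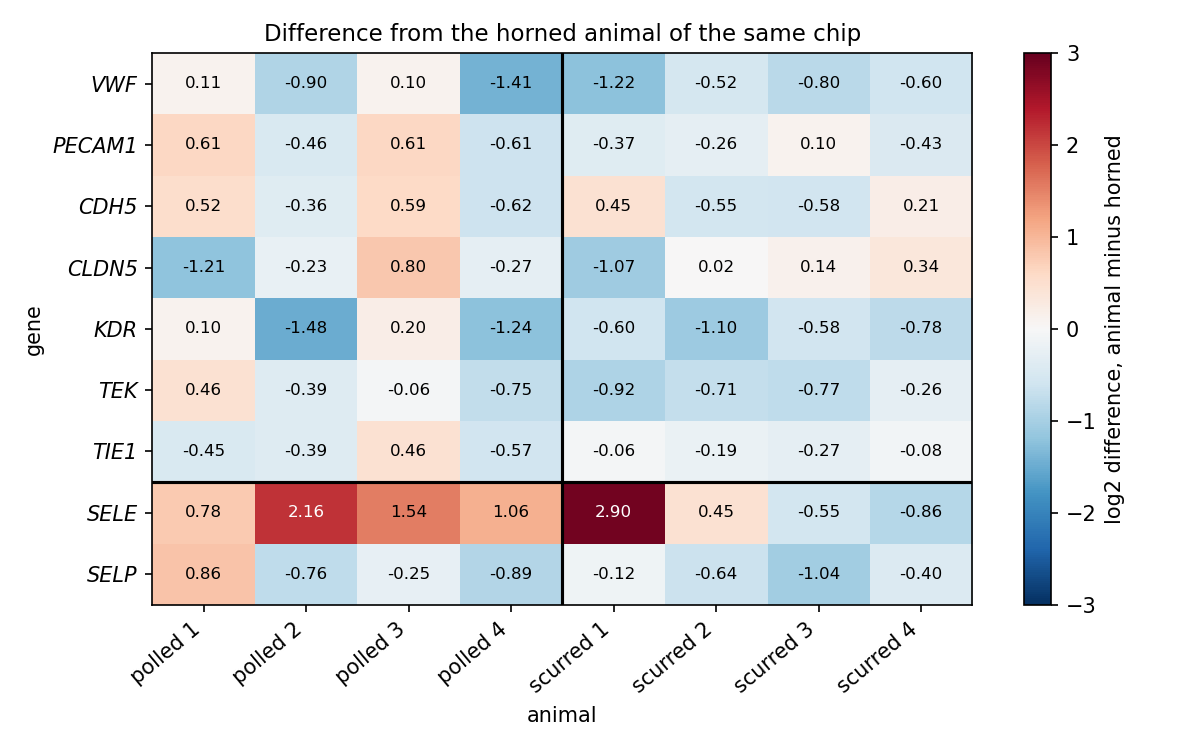
Log2 difference of each gene (rows) between each polled or scurred animal (columns) and the horned animal of the same chip, with the vertical line between polled and scurred animals and the horizontal line between constant markers and selectins. The constant markers of polled 2 and polled 4, both measured against horned 2, are all below 0. SELE reaches 2.16 in polled 2 and 2.90 in scurred 1, where no constant marker is above 0.45.

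Polled against horned skin asked which genes differ where horns never form. No member passed the threshold of 0.05 on the adjusted p (limma, Benjamini-Hochberg over 15712 probes), and 1 probe did over the whole array (0.00636%). KDR had the lowest unadjusted p of the members, 0.0383 in limma, with a sex-adjusted difference of −0.68 (SE 0.268, adjusted p 0.525), and it was the only one of the 9 below 0.05, against 9.3% of all probes. Its within-chip differences were 0.10, −1.48, 0.20 and −1.24 in polled 1 to 4. The direction thus held in 2 of 4 animals, both measured against horned 2. Without the sex term KDR stood at −0.49 (SE 0.306, adjusted p 0.583, limma), and without horned 2 at −0.41.

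SELE was higher in 4 of 4 polled animals than in the horned animal of the chip, by 0.78, 2.16, 1.54 and 1.06, as were 14.2% of all probes. Its sex-adjusted difference was 1.55 (SE 0.874, adjusted p 0.604, limma), which is 2.93-fold with a 95% interval from −0.51 to 3.61 on the log2 scale. The value rested in part on polled 2: it was 0.58 without that animal and 0.42 without its chip. The other selectin, SELP, stood at −0.32 (SE 0.32) and had the direction of the constant markers, with differences of 0.86, −0.76, −0.25 and −0.89.

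Of the 7 constant markers, 6 had a fitted value below 0 in polled minus horned, with a median of −0.25, while over all 11529 tested genes with a symbol 48.3% were below 0 and the median was 0.01. VWF stood at −0.63 (SE 0.371), TEK at −0.21 (SE 0.306), TIE1 at −0.25 (SE 0.238) and CLDN5 at −0.27 (SE 0.367). PECAM1 and CDH5 were near 0, at −0.03 (SE 0.221) and 0.06 (SE 0.357). For every member but KDR the 95% interval included 0, and those of VWF and CDH5 ran from −1.51 to 0.24 and from −0.79 to 0.90, so differences within those bounds could not be resolved with these animals.

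Scurred against horned skin asked the same where the horn is only rudimentary. Again no member passed on the adjusted p, as none of 15712 probes did (0%), and none of the 9 had an unadjusted p below 0.05 in limma, against 3.73% of all probes. The differences of VWF from the horned animal were −1.22, −0.52, −0.80 and −0.60 in scurred 1 to 4, those of KDR −0.60, −1.10, −0.58 and −0.78, and those of TEK −0.92, −0.71, −0.77 and −0.26. All 4 scurred animals were lower in each of these genes, and also in TIE1 and SELP, so that 5 of 9 members had this pattern beside 9.71% of all probes. The 9 genes are not independent of each other, and the 3 horned animals are common to all of them.

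The fitted values were −0.68 for VWF (SE 0.353), −0.59 for KDR (SE 0.255, unadjusted p 0.0545, limma) and −0.62 for TEK (SE 0.291), each with an adjusted p of 1. All 7 constant markers were below 0, with a median of −0.18, against 48% of all genes and a median of 0.01. The median was −0.18 without scurred 1, where VWF was −0.42, KDR −0.53 and TEK −0.41. It was −0.53 without horned 3, −0.43 without chip 3, −0.32 without horned 2 or chip 2 and −0.30 without scurred 4 or chip 4, and lay between −0.26 and −0.14 in the other fits that left out a chip or an animal. With arrays centred on their median in place of loess, 4 members had an unadjusted p below 0.05 in limma and none an adjusted one. CDH5 was at −0.03 (SE 0.34), with scurred 1 and scurred 4 above and scurred 2 and scurred 3 below their horned animal.

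SELE divided the scurred animals, with differences of 2.90, 0.45, −0.55 and −0.86. Its fitted value of 0.51 (SE 0.831) turned to −0.49 without scurred 1 and to −0.33 without chip 1, the chip scanned on another day. SELP, at −0.44 (SE 0.305), was lower in 4 of 4 animals, by 0.12, 0.64, 1.04 and 0.40.

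**Figure D3:**
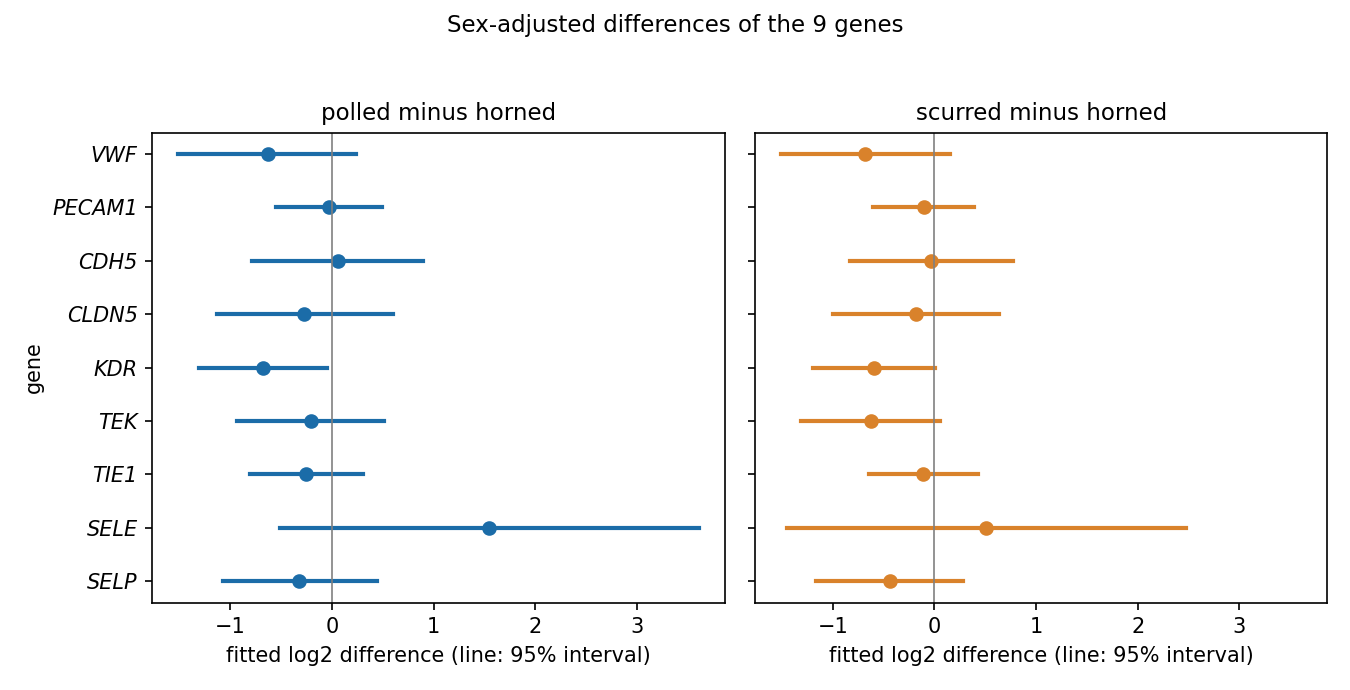
Sex-adjusted log2 differences of the 9 genes (points) with 95% intervals (lines), for polled minus horned on the left and scurred minus horned on the right. All intervals include 0 except that of KDR in polled minus horned, which runs from −1.31 to −0.05, and SELE has the widest interval in both.

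Scurred and polled animals of the same chip differed in SELE by 2.12, −1.71, −2.09 and −1.92 on chips 1 to 4, so SELE was lower in the scurred animal on 3 of the 4 chips and higher on chip 1. The fitted difference was −1.04 (SE 0.847, adjusted p 0.886, limma), and −1.84 (SE 0.457, adjusted p 0.446) without scurred 1. Among the constant markers TEK had the largest value, −0.41 (SE 0.296), and the others lay between −0.09 and 0.14, with a median of −0.05. No member passed, nor did any of the 15712 probes (0%), and 0 members had an unadjusted p below 0.05, against 6% of all probes. On every chip the scurred and the polled animal differed in sex, so this comparison leans on the sex term.

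In males minus females, 6 of the 7 constant markers had a value below 0 after rounding to 2 decimals (median −0.13). Over all genes 47.4% were below 0, with a median of 0.01. Among the markers KDR was at −0.51 (SE 0.232), VWF at −0.42 (SE 0.322), PECAM1 at −0.41 (SE 0.192) and CLDN5 at 0. SELE stood at 0.29 (SE 0.758) and SELP at −0.34 (SE 0.278). None of the 9 passed (adjusted p 1 for each, limma), beside 0.0191% of all probes that did, and none had an unadjusted p below 0.05, against 2.09% of probes.

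Horn site against control site set 2 places of the skull of the same animal side by side. In scurred 2 all 7 constant markers were higher at the horn site, by 1.14 for KDR, 1.04 for VWF, 0.93 for CDH5, 0.88 for TEK, 0.86 for TIE1, 0.64 for PECAM1 and 0.49 for CLDN5. In polled 3 the same genes lay between −0.22 (CDH5) and 0.27 (KDR). These values are means of 2 dye orders, which had opposite signs for CLDN5 in scurred 2. Its red over green value there was −0.14 with the horn site in red and −1.12 with the control site in red. In polled 3 the orders had opposite signs for every constant marker but KDR, as for VWF (−0.34 and −0.41) and TEK (0.17 and 0.15). The median of the constant markers was 0.88 in scurred 2 and 0.01 in polled 3, so the mean of the 2 animals describes neither.

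SELE was the member that went the other way in both animals. Its level was 12.16 at the horn site and 12.90 at the control site of polled 3, and 10.85 at the horn site and 12.10 at the control site of scurred 2. The mean difference was −1.0 (SE 0.182, unadjusted p 0.00987, adjusted p 0.962, limma), lower at the horn site in 2 of 2 animals, as for 26.5% of 15290 probes. By the mean of the dye orders, VWF, KDR, TEK and CLDN5 were higher in 2 of 2 animals, as for 24% of probes. Of these, only KDR was higher in both dye orders of polled 3. SELE was the only member with an unadjusted p below 0.05 in limma, against 4.71% of probes, and no probe passed on the adjusted p (0%). The largest of the constant markers, KDR, had a mean difference of 0.71 (SE 0.268, adjusted p 0.962). SELP differed by −0.13 in polled 3 and by 0.89 in scurred 2, as the constant markers did.

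**Figure D4:**
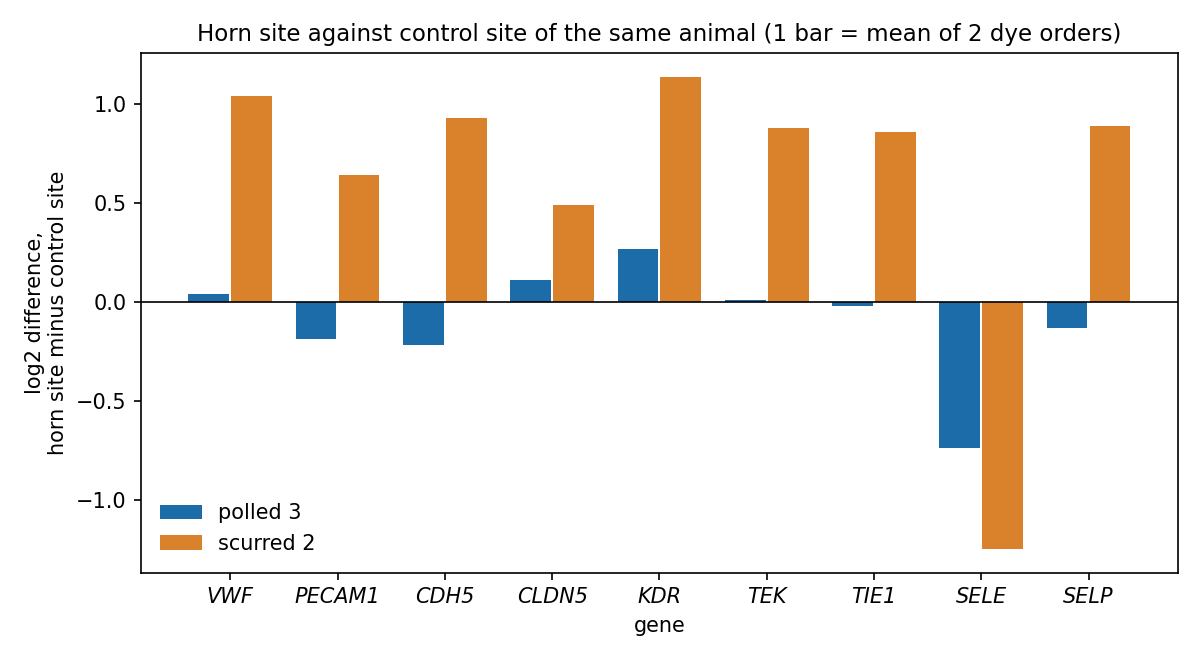
Log2 difference of each gene between horn site and control site, with polled 3 (blue) and scurred 2 (orange); each bar is the mean of 2 arrays of exchanged dyes, without replicate biopsies. Constant markers and SELP are between 0.49 and 1.14 in scurred 2 and between −0.22 and 0.27 in polled 3, and SELE is at −0.74 in polled 3 and −1.25 in scurred 2.

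The members were compared with each other over the 8 within-chip differences, which share the horned animals and are given as a description. Each constant marker was set against the mean of the other 6. VWF followed that mean most closely at r 0.862, then PECAM1 at 0.818, KDR at 0.809, TEK at 0.635, TIE1 at 0.634 and CDH5 at 0.605, while CLDN5 was at 0.0714. SELP correlated with the mean of all 7 at 0.559 and with CDH5 at 0.803, TEK at 0.754 and KDR at 0.688. SELE was at −0.133 with the constant markers and at 0.187 with SELP, so SELP stood nearer to the constant markers than to the other selectin.

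By their pattern over the 8 differences, the genes most like the mean of the constant markers, out of 11520, were CMTR1 (r 0.966), OGT (0.96), USHBP1 (0.955), PEAR1 (0.945) and TBC1D8 (0.940). PEAR1 is a receptor of platelets and endothelium, and CMTR1 an enzyme that modifies the cap of messenger RNA. The genes most opposed were BMPR1A (−0.954), RNFT1 (−0.950), DPM2 (−0.947), EDF1 (−0.946) and MRPL46 (−0.940). These values are the extremes of 11520 candidates over 8 points, and the sizes differ: CMTR1 spanned −0.31 to 0.14, against −0.78 to 0.38 for the mean of the markers.

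The genes most like SELE were KLK6 (r 0.987), PLA2G3 (0.984), CAP1 (0.983), UBXN2A (0.958) and BRCA2 (0.951). Like those above, these genes are extremes of 11520 candidates over 8 points, and the sizes differ: CAP1 spanned −0.44 to 0.43. Without scurred 1, the 7 other differences gave an r with SELE of 0.991 for KLK6, 0.975 for PLA2G3 and −0.944 for POSTN. These values were added after seeing the data. The genes were picked by r over points that include those 7, so the values are no separate check. KLK6, a kallikrein protease, had differences of 1.83, 3.85, 2.44 and 2.15 in polled 1 to 4 and 5.61, 1.23, 0.11 and −0.64 in scurred 1 to 4, the same order of animals as SELE. PLA2G3, a secreted phospholipase, reached 4.21 in scurred 1 and −0.94 in scurred 4. POSTN, a matrix protein of dermal fibroblasts, was among the most opposed (−0.965), with −2.83 in polled 2, −3.15 in scurred 1 and 1.03 in scurred 4. The others most opposed were LPAR4 (−0.983), MORC4 (−0.981), ADAM22 (−0.968) and SAV1 (−0.961). For SELP the most alike were SAFB2 (0.97), ZNF276 (0.968), CNTNAP1 (0.959), BCAS1 (0.959) and SMC1A (0.959). The most opposed was WDR73 (−0.979), and these too are extremes of 11520 candidates.

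Genes of other cells were read beside SELE. The 9 keratinocyte genes all had a value above 0 in polled minus horned (median 1.78) and in scurred minus horned (median 0.84), and none passed on the adjusted p. Their median was 1.25, 2.21, 1.08 and 1.33 in polled 1 to 4 and 2.42, 2.42, 0.18 and −0.69 in scurred 1 to 4. Over the 8 differences SELE correlated with this median at 0.795 and with the median of 7 dermal fibroblast genes at −0.816, and without scurred 1 at 0.752 and −0.825. KRT5, the basal keratin, was at 5.14, 3.14, 1.02 and −0.69 in scurred 1 to 4, where SELE was at 2.90, 0.45, −0.55 and −0.86. Its fitted value in scurred minus horned was 2.24 (SE 1.19), and 1.05 (SE 0.975) without scurred 1. KRT1, a keratin of the upper epidermis, was at 0.84 (SE 0.346) in the same comparison. In polled minus horned CDH1, the cadherin of epithelial junctions, was at 1.44 (SE 0.624) and TP63, a transcription factor of basal keratinocytes, at 0.36 (SE 0.169). The summed level of the keratinocyte genes was 16.45 to 18.71 in polled, 14.74 to 19.81 in scurred and 14.88 to 15.93 in horned animals, on the log2 scale. At chip 5 their median was −0.19 in polled 3 and −0.26 in scurred 2, below 0 in both as SELE was. The median of pericyte and smooth muscle genes was below 0 in both too (−0.44 and −0.03), and 26.5% of all probes were lower in both animals. The part of the keratinocyte genes in the SELE result was not tested.

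**Figure D5:**
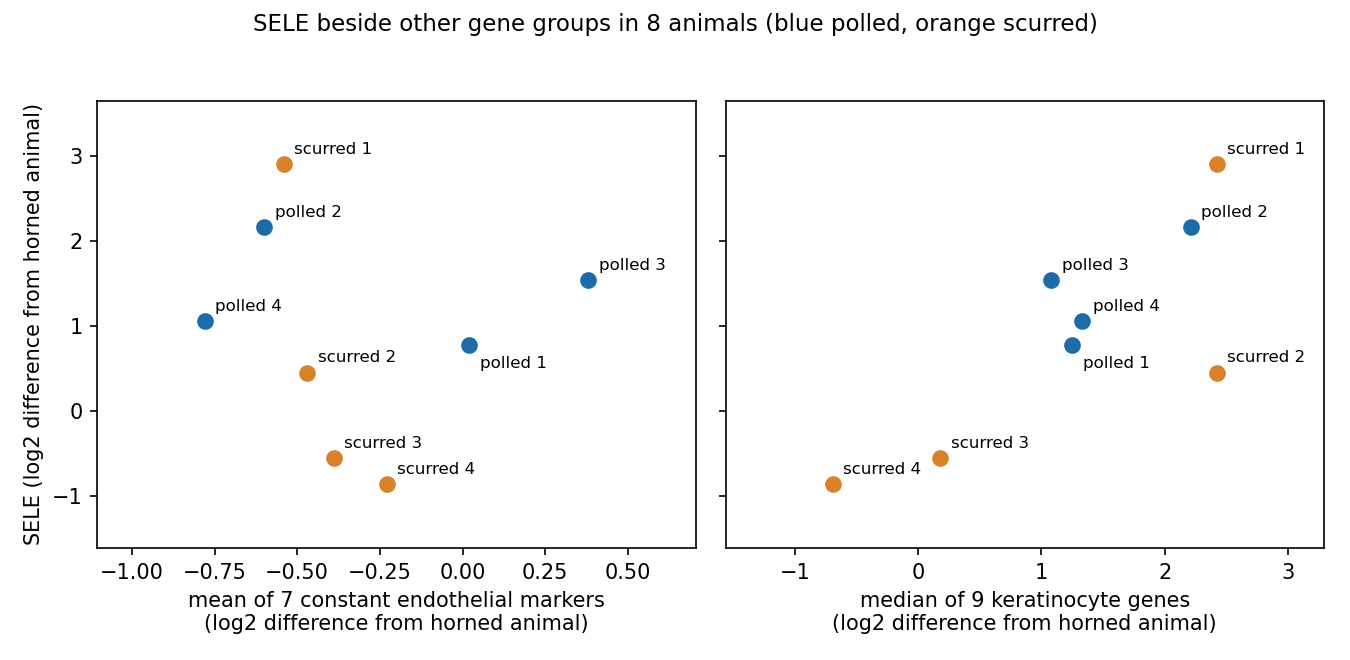
SELE (vertical axis) against the mean of the 7 constant endothelial markers (left) and against the median of 9 keratinocyte genes (right), all as log2 differences from the horned animal of the chip, with 1 point for each of 4 polled (blue) and 4 scurred (orange) animals. SELE runs from −0.86 to 2.90, with an r of −0.133 with the constant markers and of 0.795 with the keratinocyte genes. Scurred 2, at 2.42 for the keratinocyte genes, is at 0.45 for SELE.

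Red cell genes mark blood in a biopsy. HBB, the beta chain of haemoglobin, was above the horned animal by 6.13, 2.03, 3.23 and 1.52 in polled 1 to 4 and by 2.76, 4.13, 1.56 and 4.92 in scurred 1 to 4. Its fitted values were 2.86 (SE 1.16, adjusted p 0.529, limma) in polled minus horned and 3.51 (SE 1.1, adjusted p 1) in scurred minus horned. HBA, the alpha chain, was at 2.37 (SE 0.916) and 2.78 (SE 0.872) in these comparisons. The median of the 4 tested red cell genes was 2.04 in polled minus horned and 2.45 in scurred minus horned, and 0 of 4 passed. Their summed level was 14.81 to 19.45 in polled and 15.08 to 18.35 in scurred, against 13.48 to 14.47 in horned animals. The constant endothelial markers summed to 14.36 to 15.31 in polled, 14.30 to 14.89 in scurred and 14.93 to 15.39 in horned animals. Each sum is of intensities before the log, so the brightest probe weighs most. For the constant markers that is VWF, with levels from 12.87 to 14.40, so their sum largely follows VWF. At chip 5 the red cell median was 1.98 in scurred 2 and −0.79 in polled 3, beside 0.88 and 0.01 for the constant markers. The part of blood in the endothelial values was not tested.

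Platelets share VWF, PECAM1 and SELP with endothelium. Of the 9 platelet genes listed, 3 were tested, PF4 and GP5 were not well above background in any animal, and 4 had no probe with that symbol. Of the tested ones, ITGA2B, the platelet integrin, was at 0.15 (SE 0.167) in polled minus horned and at 0.06 (SE 0.159) in scurred minus horned. PPBP, a platelet chemokine well above background in 4 of 11 animals, was at 0.02 (SE 0.189) in scurred minus horned. TREML1, a receptor of platelet granules, was at −0.82 (SE 0.365) in polled minus horned. The summed level of these 3 genes was 9.25 to 10.17 in polled, 9.47 to 10.17 in scurred and 9.53 to 10.68 in horned animals, so it overlapped across all groups. Whether the biopsies held alike amounts of platelets was not tested.

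Other endothelial genes were read from lists chosen by function. Of 15 tested surface and junction genes, 11 were below 0 in polled minus horned (median −0.36) and 13 in scurred minus horned (median −0.19), and 0 passed. PLVAP, which forms the diaphragms of fenestrated vessels, stood at −0.65 (SE 0.286) in scurred minus horned, with differences of −0.60, −1.10, −0.80 and −0.43. CD93, a lectin-like receptor, was at −0.44 (SE 0.261) in the same comparison, and EMCN, an endothelial sialomucin, at −0.49 (SE 0.282) in polled minus horned beside JAM2, a junction adhesion molecule, at −0.36 (SE 0.188). The median of this list followed the mean of the constant markers at r 0.916 over the 8 differences. In scurred 2 its median was 0.79 at the horn site against the control site, and in polled 3 it was 0.12.

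Of 6 tested receptors that work beside KDR and TEK, 5 were below 0 in both comparisons, with medians of −0.20 in polled minus horned and −0.23 in scurred minus horned. NRP1, the co-receptor of KDR, stood at −0.39 (SE 0.153, adjusted p 0.524, limma) in polled minus horned and at −0.41 (SE 0.146, adjusted p 1) in scurred minus horned, lower in 7 of 8 animals and at 0 in polled 3. ENG, a co-receptor of the TGF-beta family on endothelium, was at −0.44 (SE 0.195) in polled minus horned and at −0.32 (SE 0.186) in scurred minus horned. FLT4 was not well above background in any animal, and FLT1 had no probe with that symbol.

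Of 7 tested VEGF and angiopoietin ligands, 5 were above 0 in polled minus horned (median 0.09) and 6 in scurred minus horned (median 0.11), and 0 passed. VEGFC, the growth factor of lymphatic vessels, was higher in 8 of 8 animals, by 1.18, 1.59, 1.60 and 0.90 in polled 1 to 4 and by 1.64, 0.18, 0.65 and 0.65 in scurred 1 to 4. Its fitted values were 1.49 (SE 0.308, adjusted p 0.428, limma) in polled minus horned and 0.79 (SE 0.294, adjusted p 1) in scurred minus horned, where it was 0.47 without scurred 1. VEGFD, its close relative, was at 0.63 (SE 0.288) in polled minus horned. PGF, the placental growth factor, was at 0.47 (SE 0.321) in scurred minus horned, with 1.16 in scurred 1 and −0.21 to 0.32 in scurred 2 to 4.

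Endothelial transcription factors were mixed, with 4 of 12 below 0 in polled minus horned and 7 of 12 in scurred minus horned. ERG, an ETS factor that maintains endothelial identity, stood at −0.49 (SE 0.269) in polled minus horned and HEY1, a target of Notch signalling, at 0.61 (SE 0.307). GATA2 was at −0.45 (SE 0.18) in scurred minus horned, lower in 4 of 4 scurred animals, and KLF4, which epidermis also expresses, at 1.21 (SE 0.633). Of the 4 lymphatic genes tested, CCL21, the chemokine of lymphatic vessels, was at 0.90 (SE 0.531) in polled minus horned and 0.76 (SE 0.505) in scurred minus horned. STAB1, a scavenger receptor, was at −0.38 (SE 0.362) in polled minus horned, and LYVE1, the hyaluronan receptor of lymphatic endothelium, at 0.27 (SE 0.578) in scurred minus horned.

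Pericytes and smooth muscle wrap the vessels, and 9 of their 10 genes were below 0 in both comparisons, with medians of −0.39 in polled minus horned and −0.58 in scurred minus horned. MYH11, the smooth muscle myosin, stood at −1.69 (SE 0.55, adjusted p 1, limma) in scurred minus horned, with −3.65 in scurred 1 and a fitted value of −1.25 (SE 0.532) without that animal, and NOTCH3, a Notch receptor of pericytes, at −0.51 (SE 0.191) there and at −0.40 (SE 0.2) in polled minus horned. ACTA2, smooth muscle actin, was at −0.66 (SE 0.435) in polled minus horned.

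Genes that inflammation induces were also read beside SELE. The median of the 12 tested genes was −0.04 in polled minus horned and 0.22 in scurred minus horned, 0 passed, and over the 8 differences it correlated with SELE at −0.359. IL6, an inflammatory cytokine, stood at −1.84 (SE 0.758, adjusted p 0.529, limma) in polled minus horned, with differences of 1.81, −3.06, −1.94 and −3.43, while SELE was above 0 in the same 4 animals. NFKBIA, an inhibitor that NF-kappa-B induces, was at 0.57 (SE 0.341) in polled minus horned. Its differences in polled 1 to 4 were 0.87, 0.78, 0.37 and 1.08, above 0 as those of SELE were. CXCL8, the chemokine of neutrophils, was well above background in 7 of 11 animals. It was at 2.04 (SE 0.999) in scurred minus horned, with 5.67 in scurred 1 and −0.08 to 1.37 in the other 3. Without scurred 1 CXCL8 was at 0.73 (SE 0.305). IL1B, a further cytokine well above background in 9 of 11 animals, was at 0.65 (SE 0.324) with all animals. Its difference was 1.87 in scurred 1 and −0.10 to 0.32 in the other 3. At chip 5 IL6 was at −4.00 in polled 3 and 0.41 in scurred 2, and SELE was below 0 in both. CXCL8 was at −1.05 and −0.20 there, NFKBIA at 0.22 and −0.02, and IL1B at −0.38 and 0.15. The part of inflammation in the SELE values was not tested.

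Among 9 tested leukocyte genes, AIF1, a gene of macrophages, fell by 1.71 on the log2 scale in polled minus horned (SE 0.115, adjusted p 0.0199, limma) and was the only gene of any list to pass. It passed in 6 of 10 other settings and in 1 of 15 fits that left out a chip or an animal, with values from −1.86 to −1.68. CD3E, a chain of the T cell receptor complex, was higher in 8 of 8 animals, at 0.72 (SE 0.13, adjusted p 0.378) in polled minus horned and 0.81 (SE 0.124, adjusted p 1) in scurred minus horned. The median of the leukocyte genes was −0.17 in polled minus horned and 0.45 in scurred minus horned, and it correlated with SELE at −0.413 and with the mean of the constant markers at 0.179. Dermal fibroblast genes stood at a median of −1.10 in polled minus horned, 7 of 7 below 0, and at 0.04 in scurred minus horned. DPT, a dermal matrix protein, was at −1.05 (SE 0.275) in polled minus horned and PDGFRA, a growth factor receptor of fibroblasts, at −0.40 (SE 0.148). LUM, a collagen-binding proteoglycan, was at 0.32 (SE 0.414) and COL3A1, a fibrillar collagen, at −0.50 (SE 0.727) in scurred minus horned.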

How the data were processed

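RNA of 11 animals was measured on 20 arrays. The deposited scanner files hold mean and processed spot intensities on a linear scale with local background, and the deposited table holds log10 ratios of the same arrays. Compared with the scanner values, 14 of its columns had slope 1 and 6 slope −1 against red over green, and column medians lay between −0.019 and 0.00971 in log10 units, close to 0. Agilent Feature Extraction 9.5.1 is named per the submitters' processing notes. The log2 values here were computed from the deposited intensities.

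Mean signals were corrected with normexp (offset 50) and normalized by loess in limma 3.58.1 (R 4.3.3). Flagged spots were left out and duplicate spots averaged. Probes were named through the file's identifiers and RefSeq genes of ARS-UCD2.0, which matched 16155 of 21475 probes to a symbol. 201 probes whose name and description gave different genes stayed unnamed. A further, dimmer probe with a placeholder name was described as similar to von Willebrand factor. It was averaged with the VWF probe only in the alternative over all probes of a gene.

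Arrays of chips 1 to 4 gave 1 value per animal with a dye term. These entered 1 fit of horn type and sex with the chip (joined through horned 2) as a block, leaving 5 residual degrees of freedom. Moderated two-sided limma tests were adjusted by Benjamini and Hochberg over 15712 probes well above background in at least 3 animals. Chip 5 tested the mean of 2 animals against 0 (15290 probes, at least 2 of 4 RNAs). Levels are channel intensities after loess and Aquantile, averaged within and then across dyes. The fit was tested on simulated data. Deviations from group means correlated at 0.238, 0.284, 0.425 and −0.077 for animals of the same chip, so the block comes from the design, in which the polled, scurred and horned animal share a chip. The labels do not say whether RNA of an animal was extracted more than once.

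The members and all gene lists were chosen with earlier results of these data known. Named beyond the members are the 2 genes of each list with the lowest unadjusted p in polled minus horned and in scurred minus horned, and the genes most and least alike by Pearson correlation. The other genes of the keratinocyte list are named only for the check of the tissue, and PF4, GP5, FLT4 and FLT1 for their detection. Alternatives were other background corrections and normalizations, the deposited ratios, no sex term, no block, other filters, all probes of a gene, flagged spots kept, and leaving out each chip and animal. Values of genes outside the members without scurred 1 were added after seeing the data.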

Additional observations from a re-analysis of the deposited data

Results flagged for a closer look

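At chip 5, 4 members had values of opposite sign in the 2 animals in horn site minus control site. PECAM1 was at 0.64 in scurred 2 and −0.19 in polled 3, CDH5 at 0.93 in scurred 2 and −0.22 in polled 3, TIE1 at 0.86 in scurred 2 and −0.02 in polled 3, and SELP at 0.89 in scurred 2 and −0.13 in polled 3. With 1 animal of each horn type the difference between them was not tested. In polled 3 the 2 dye orders of each of these 4 genes had opposite signs. Among 36 sets of 4 animals (levels and within-chip differences of the 9 members in polled and scurred animals) none had an animal past Dixon's critical value at 95%, where chance alone would flag about 5% of sets.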

How the results depend on the processing

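No member passed on the adjusted p under any of up to 10 other settings per comparison or, on chips 1 to 4, 15 fits that each left out a chip or an animal; the lowest adjusted p was 0.222 (KDR, polled minus horned). Members with an unadjusted p below 0.05 in limma numbered 0 to 2 in polled minus horned (1 as reported), 0 to 4 in scurred minus horned (0), 0 to 1 in scurred minus polled (0) and 0 to 3 in male minus female (0), and 1 under each setting at chip 5 (1). With no replicate block they numbered 0 in polled minus horned and 2 in scurred minus horned, and the median of the constant markers was −0.24 and −0.25. Over fits that left out a chip or an animal that median ran from −0.48 to −0.14 in polled minus horned, from −0.53 to −0.14 in scurred minus horned, from −0.26 to 0.29 in scurred minus polled and from −0.44 to −0.11 in male minus female, and at chip 5 from 0.01 to 0.88. In scurred minus polled it turned to 0.01 with median centring. It turned to 0.09 with VWF averaged with the probe described as similar to von Willebrand factor. Quantile normalization left the same number of group pairs without overlap, 2.

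Values near 0 changed sign. Median centring gave −0.08 for CDH5 in polled minus horned, 0.01 for VWF in scurred minus polled, 0.02 for CDH5 and 0.04 for CLDN5 in male minus female, and −0.13 for PECAM1 at chip 5. Without the sex term PECAM1 was at 0.12 in polled minus horned and KDR at −0.16 in scurred minus polled. With no replicate block CLDN5 was at 0.15 in male minus female. Averaged with the probe described as similar to von Willebrand factor, VWF was at 0.54 in scurred minus polled. The causes were not tested. Leaving out a chip or an animal gave ranges that crossed 0, in polled minus horned for PECAM1 (−0.30 to 0.14), CDH5 (−0.17 to 0.34) and CLDN5 (−0.67 to 0.14). In scurred minus horned they did for PECAM1 (−0.22 to 0.04), CDH5 (−0.25 to 0.25), TIE1 (−0.22 to 0.07), CLDN5 (−0.53 to 0.29) and SELE (−0.49 to 0.96). In scurred minus polled they did for VWF (−0.41 to 0.20), KDR (−0.13 to 0.45), PECAM1 (−0.26 to 0.32), CDH5 (−0.36 to 0.31), CLDN5 (−0.34 to 0.31), SELE (−1.88 to 0.44) and SELP (−0.38 to 0.08). In male minus female they did for CDH5 (−0.44 to 0.08), TEK (−0.33 to 0.07), TIE1 (−0.24 to 0.09), CLDN5 (−0.21 to 0.37) and SELE (−1.06 to 0.70). At chip 5 PECAM1 (−0.19 to 0.64), CDH5 (−0.22 to 0.93), TIE1 (−0.02 to 0.86) and SELP (−0.13 to 0.89) did, each end being 1 animal. SELE in polled minus horned stayed above 0 throughout, from 0.42 to 2.11. Signal was above background for all members.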

Other observations

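A second probe, described as similar to von Willebrand factor under a placeholder name, had a mean brightness of 7.80 (log2 intensity). It is not counted as VWF above, except in the alternative over all probes of a gene. Its levels were 8.11, 6.39, 7.16 and 7.39 in polled, 6.69, 8.52, 8.68 and 8.39 in scurred and 7.97, 8.41 and 9.34 in horned animals. Over the 8 within-chip differences it correlated with the VWF probe at r 0.101. It stood at −1.50 (SE 0.604, unadjusted p 0.041, adjusted p 0.527, limma) in polled minus horned and at −0.37 (SE 0.574) in scurred minus horned. Whether both probes read the same gene was not tested. CLDN5 had the largest level in horned 1 (9.37), and differences of −1.21 in polled 1 and −1.07 in scurred 1, both measured against that animal.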
